A study of Mus musculus with 4 samples.

Results

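The ionotropic glutamate receptors of the kainate type were followed across the cell classes of the mouse hippocampus in wild-type (WT) mice and in mice carrying an R87C change in Cyfip2. The genes were taken by symbol: the 5 subunit genes Grik1, Grik2, Grik3, Grik4 and Grik5 and the auxiliary subunit genes Neto1 and Neto2, 7 of the 32285 genes counted. RNA of single nuclei was counted in frozen hippocampi, both hemispheres of a mouse together, from 2 adult WT mice and 2 adult heterozygous Cyfip2+/R87C knock-in (KI) mice, which were littermates on a C57BL/6N background. The line carries the change that is found in patients with West syndrome, an epilepsy of infancy, and every cell of a KI mouse carries 1 edited and 1 WT copy of Cyfip2. Each mouse gave 1 library, and the labels gave the 4 libraries the same batch. KI replicate 2 is labelled R88C in 1 field and R87C in another, but its genotype label puts it among the KI mice.

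Kainate receptors are tetrameric cation channels opened by glutamate. GluK1, GluK2 and GluK3 (from Grik1 to Grik3) can form channels alone, while GluK4 and GluK5 (from Grik4 and Grik5) bind glutamate with high affinity and need a partner of the first group. Neto1 and Neto2 are single-pass membrane proteins that travel with the receptor and slow its deactivation and desensitization. In the hippocampus these receptors are best known from the synapses of dentate gyrus (DG) granule cell axons, the mossy fibers, on CA3 pyramidal neurons, and from interneurons, and kainate itself is widely used to evoke seizures.

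The libraries held 16055 and 13237 barcodes in WT replicates 1 and 2 and 12665 and 13683 in KI replicates 1 and 2, with 73009975 to 80913580 UMIs (unique molecular identifiers, each 1 counted transcript). After filtering, 14933, 12365, 11925 and 12793 nuclei remained, with a median of 3867 to 4692 UMIs. Pairs of libraries shared 40 to 67 barcodes. Nuclei were grouped into 16 classes by clusters that were named from marker genes, with the 7 kainate receptor genes left out of the clustering. In DG granule nuclei, 7 of 8 markers stood at 2 or more times their mean in the other classes in every library, in CA3 6 of 8, in CA2 6 of 7, in inhibitory nuclei 5 of 6, in mossy cells 5 of 8, in CA1 3 of 7 and in subicular or cortical excitatory nuclei 4 of 10. CA1 and subicular or cortical nuclei were thus the least sharply marked of these. Cyfip2 itself, whose coding change leaves its 3' tag in place, stood at 182 and 180 CPM (counts scaled to a fixed total of UMIs) in WT and at 172 and 171 CPM in KI, so that its level does not check the labels.

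Levels are CPM of the UMIs of a library in a class. They describe 1 gene across classes and are not compared between genes, since the counts of nuclear RNA grow with the length of a gene, which ran from 62.5 kb for Grik5 to 693.9 kb for Grik2. Classes were ordered by the mean over the 4 libraries, with no test, since classes come from the same nuclei. Neighbours in the order are called apart where every library of the higher class lay above every library of the lower class.

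**Figure D1:**
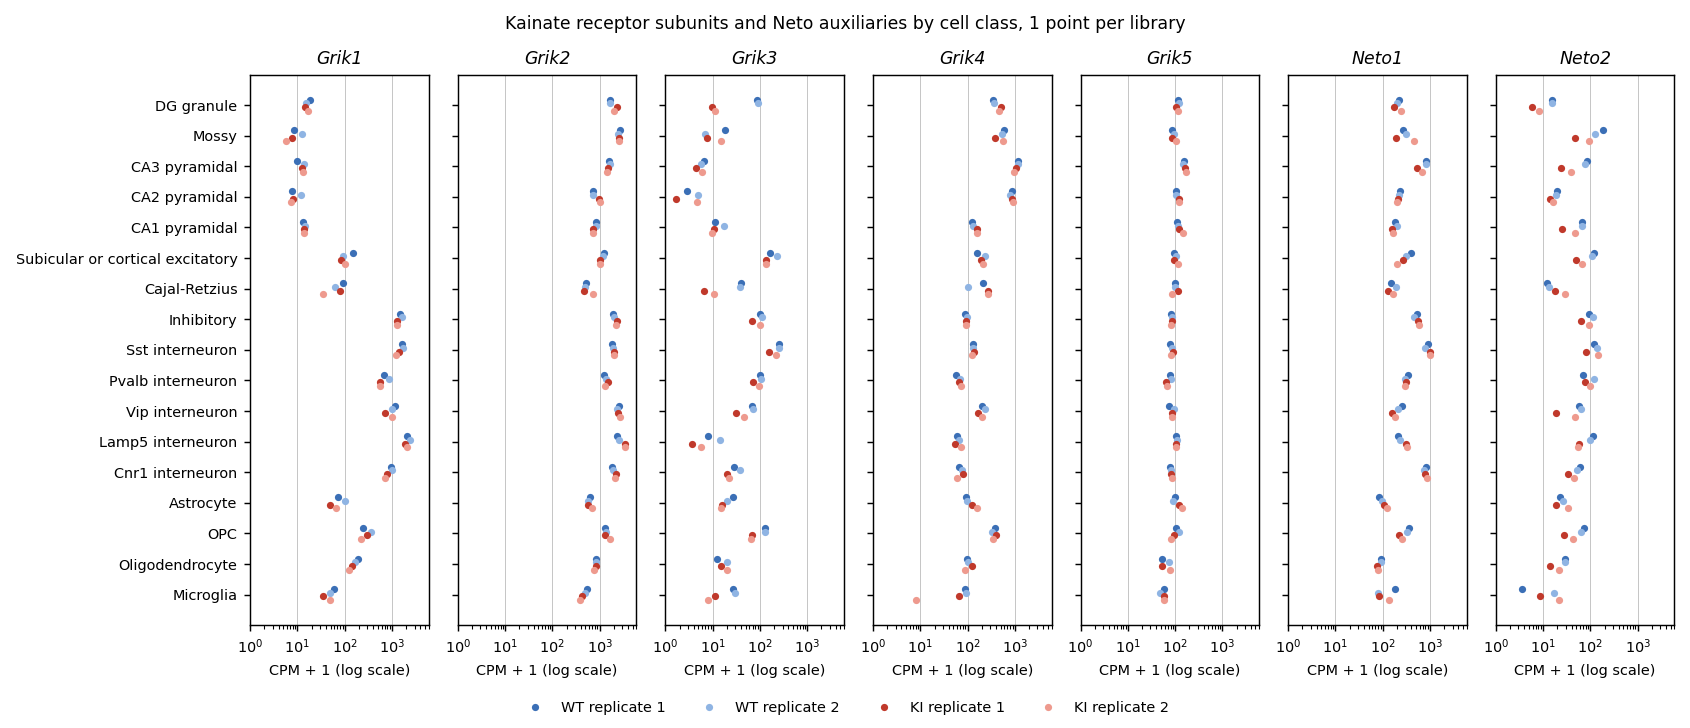
Level of each of the 7 genes (CPM + 1, log axis) by cell class and interneuron subtype, with 1 point per library (blue, 2 WT; red, 2 KI). Grik1 stands apart in inhibitory nuclei at 1258 to 1602 CPM, Grik4 in CA3 nuclei at 957 to 1174 CPM, and Grik3 in DG granule nuclei lies near 90 CPM in WT and near 10 CPM in KI.

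Grik1 (chromosome 16, 87895900 to 88290265, minus strand, in GENCODE M21 on GRCm38, as all positions here) was a gene of inhibitory nuclei. It stood at 1439 and 1602 CPM in WT against 1264 and 1258 CPM in KI, apart from the next class. That class was oligodendrocyte precursor cells (OPCs), at 222 to 352 CPM. Excitatory nuclei of the hippocampus proper were at the bottom of the order, with DG, CA1, CA3, CA2 and mossy nuclei between 4.7 and 17.2 CPM. Among interneuron subtypes the order was Lamp5 (mean 2119 CPM), Sst (1480), Vip (966), Cnr1 (867) and Pvalb (656), in which Lamp5 and Sst were apart from the subtype after them while Vip, Cnr1 and Pvalb overlapped. After thinning to 1000 UMIs per nucleus, 52.5% to 62.6% of inhibitory nuclei held a Grik1 UMI, against 1.75% to 2.13% of DG granule nuclei.

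Grik2 (chromosome 10, 49094833 to 49788766, minus strand) was counted in every class, between a mean of 459 CPM in microglia and 2568 CPM in mossy cells, the excitatory neurons of the hilus. After thinning, 25.4% to 30.8% of microglia held a Grik2 UMI, and how much of the low levels is free RNA was not tested. Mossy cells, committed OPCs (mean 2447 CPM), inhibitory (2092) and DG granule nuclei (1927) headed the order. Each but DG overlapped with the class after it, and DG was apart from CA3 (1560). CA1 nuclei stood at 712 to 853 CPM. Lamp5 interneurons (mean 2955 CPM) and Vip interneurons (2535) overlapped at the top of the subtypes, and Pvalb interneurons were lowest at 1366 CPM.

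Grik3 (chromosome 4, 125490700 to 125714173, plus strand) was sparse. Subicular or cortical excitatory nuclei were highest at 134 to 232 CPM and apart from the next class. The makeup of this class differed between libraries. In the order WT replicates 1 and 2, KI replicates 1 and 2, its cluster 10 had 69, 394, 195 and 709 nuclei. Its cluster 13 had 81, 405, 235 and 481 in that order, and the part of this in the range was not tested. OPCs, committed OPCs and inhibitory nuclei followed with means of 94.4 to 96.3 CPM and overlapped. DG granule nuclei came next by their mean of 49.1 CPM, which joins very different WT and KI values given below. CA1, mossy, CA3 and CA2 nuclei held means of 2.48 to 11.2 CPM. Sst interneurons (151 to 253 CPM) were apart from Pvalb interneurons (70.9 to 103 CPM), and Lamp5 interneurons were lowest with 2.6 to 13.5 CPM.

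Grik4 (chromosome 9, 42518135 to 42944493, minus strand) marked the CA3 field. CA3 nuclei held 957 to 1174 CPM, apart from CA2 nuclei at 775 to 925 CPM, and these were apart from mossy cells at 387 to 584 CPM. DG granule nuclei (351 to 505 CPM) overlapped with mossy cells above and OPCs (325 to 404 CPM) below them, and OPCs were apart from the class after them. CA1 nuclei held 124 to 160 CPM and inhibitory nuclei 85.3 to 94.98 CPM. Grik5 (chromosome 7, 25009849 to 25072346, minus strand) had means that ran from 53.0 CPM in endothelial nuclei to 157 CPM in CA3 nuclei. CA3 was apart from CA1 for this gene, and no other neighbours in its order of 16 classes were apart.

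Neto1 was highest in CA3 nuclei, at 534 to 831 CPM, with inhibitory nuclei next at 454 to 579 CPM, and the ranges overlapped. Within interneurons Sst (mean 932 CPM) and Cnr1 (807) overlapped and Cnr1 was apart from Pvalb (308). Neto2 (chromosome 8, 85636588 to 85700924, minus strand) was low, with means of 112 CPM in mossy cells, 90.4 in inhibitory, 85.0 in subicular or cortical excitatory and 55.5 in CA3 nuclei over all libraries, all overlapping. In WT alone mossy cells (181 and 126 CPM) lay above subicular or cortical excitatory (116 and 110 CPM) and inhibitory nuclei (92.1 and 113 CPM). DG granule nuclei were last for Neto2 by the mean of 10.3 CPM over all libraries, which joins a WT mean of 14.4 and a KI mean of 6.11 CPM, and by the WT mean microglia (9.19), Cajal-Retzius (11.7) and fibroblast nuclei (14.2) lay below them.

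The genes whose levels were most like each member were found by Pearson's r of log2(CPM + 1) over the 64 library-by-class sums, among 10667 genes. The points share libraries and classes, so r is a description. Grik1 was closest to Erbb4 (r = 0.80), a receptor tyrosine kinase of interneurons, then Nxph1 (0.78) and Gm38505 (0.75). The closest to Grik2 were Tmem132b (0.80), Opcml (0.76) and Cadm2 (0.73), and to Grik3 Brinp3 (0.70), Sema6d (0.70) and the NMDA receptor subunit gene Grin3a (0.70). Grik4 was closest to Lrp1b (0.76), Cacna1c (0.75) and Nlgn1 (0.73), and Grik5 to the AMPA receptor subunit gene Gria2 (0.65), Astn1 (0.64) and Mapk10 (0.62). Neto1 was closest to the vesicle release genes Cadps (0.81), Pclo (0.79) and Syn2 (0.78), and Neto2 to Prkaa2 (0.65), C530008M17Rik (0.64) and Gm17171 (0.64).

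KI was then compared with WT in each class, on counts summed per mouse, with edgeR's quasi-likelihood test and Benjamini-Hochberg adjustment over all genes of the class. Of 90 tests of a member in a class, 6 passed an adjusted p of 0.05, with 3 higher and 3 lower in KI. Of the 6, 4 were in DG granule nuclei (Grik2 and Grik4 higher, Grik3 and Neto2 lower), 1 in CA3 (Neto2 lower) and 1 in CA2 (Grik2 higher). The remaining 13 classes gave none. The share of all tested genes that passed was 9.83% in DG granule nuclei (4.91% higher and 4.92% lower in KI), beside 4 of 7 members. It was 3.54% in CA3 (2.23% higher, 1.31% lower), 2.92% in CA2 (1.76% higher, 1.16% lower) and 6.73% in CA1 (4.1% higher, 2.63% lower). In the classes with no member called it was 1.18% in inhibitory nuclei, 0.96% in microglia, 0.912% in oligodendrocytes, 0.317% in mossy cells, 0.14% in astrocytes, 0.0105% in OPCs and 0% in subicular or cortical excitatory, Cajal-Retzius, committed OPC, endothelial, mural and fibroblast nuclei. Malat1, a nuclear RNA, took 8.90% and 8.70% of UMIs in WT and 13.7% and 12.2% in KI, a difference in the libraries that moves with genotype and whose part in these results was not tested. With 2 mice per group, p-values measure the spread between these 4 mice.

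**Figure D2:**
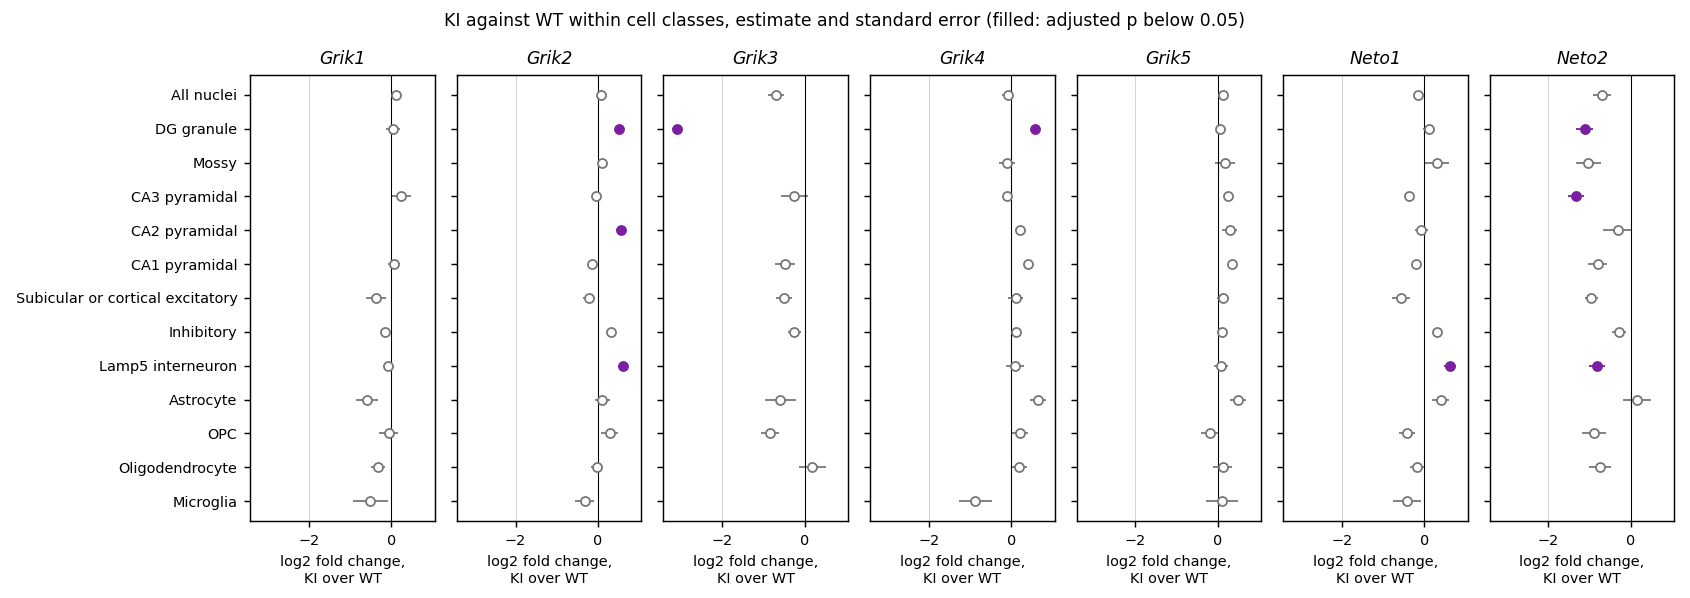
Fitted log2 fold change of KI over WT with its standard error for each gene by class, filled where the adjusted p was below 0.05. Grik3 in DG granule nuclei lies at -3.09, and the estimates of Neto2 lie below 0 in every class drawn except astrocytes.

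In DG granule nuclei, the neurons that send the mossy fibers, Grik3 stood at 86.2 and 91.3 CPM in WT against 8.7 and 10.3 CPM in KI. The groups were far apart, and both KI libraries lay close to each other. The log2 fold change was -3.09 ± 0.13 (standard error, adjusted p = 0.000881), a level 8.53-fold lower in KI. It passed in all 12 alternative settings, where it ranged from -3.23 to -2.80.

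The same was seen as nuclei with a Grik3 UMI. They made up 27.6% of 4280 DG granule nuclei in WT replicate 1 (exact 95% interval 26.3% to 29.0%) and 31.4% of 3285 in WT replicate 2 (29.8% to 33.0%). In KI they made up 4.01% of 2466 (3.28% to 4.87%) and 4.24% of 2215 (3.44% to 5.17%). In WT, 64 and 66 nuclei held 3 or more Grik3 UMIs. None did in KI, which allows shares of up to 0.122% and 0.135%. Intervals and limits cover counting error only. After thinning to 1000 UMIs the shares were 7.27% and 8.73% in WT and 0.651% and 1.32% in KI. In microglia, which should lack the gene, they were 2.56%, 1.99%, 0.479% and 1.41% in the same order of libraries, with medians of 1185 to 1317 UMIs per nucleus before thinning, against 3728 to 4410 in DG granule nuclei. The thinned KI shares in DG granule nuclei thus lay at the level of microglia, and the WT shares above it. Microglia of KI mice held a mean of 8.58 CPM of Grik3, so the fold given above is measured against a KI level near that background.

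**Figure D3:**
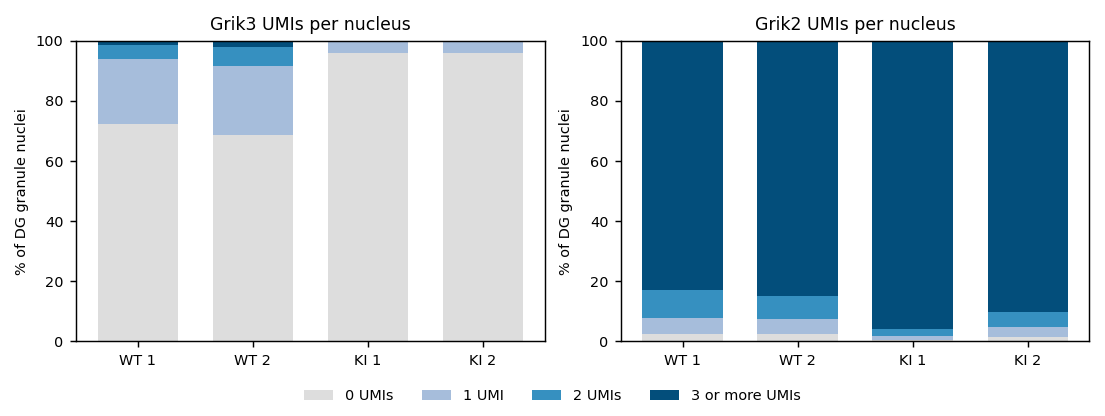
Share of DG granule nuclei (in %) with 0, 1, 2 and 3 or more UMIs of Grik3 and Grik2 in each library. Nuclei without a Grik3 UMI make up 72.4% and 68.6% in WT and 96.0% and 95.8% in KI, and nuclei with 3 or more Grik2 UMIs 83.0% and 85.0% in WT and 95.9% and 90.2% in KI.

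DG granule nuclei fell into 3 clusters, of which clusters 0 and 2 were mostly WT and mostly KI and cluster 20 was shared. In the order WT replicates 1 and 2, KI replicates 1 and 2, cluster 0 had 3842, 2911, 83 and 474 nuclei, cluster 2 had 195, 149, 2302 and 1587, and cluster 20 had 243, 225, 81 and 154. Clusters 34 (180, 70, 0 and 1 nuclei) and 45 (44, 24, 0 and 1) also raised DG markers but were left unnamed for their doublet scores. In cluster 0 it stood at 88.9 and 92.1 CPM in WT against 9.9 and 12.0 CPM in KI. In cluster 2 the values were 25.5 and 59.3 CPM in WT against 8.7 and 10.0 CPM in KI, and in cluster 20 90.4, 102.9, 7.6 and 6.9 CPM. The KI libraries lay below the WT libraries in clusters 0, 2 and 20.

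**Figure D4:**
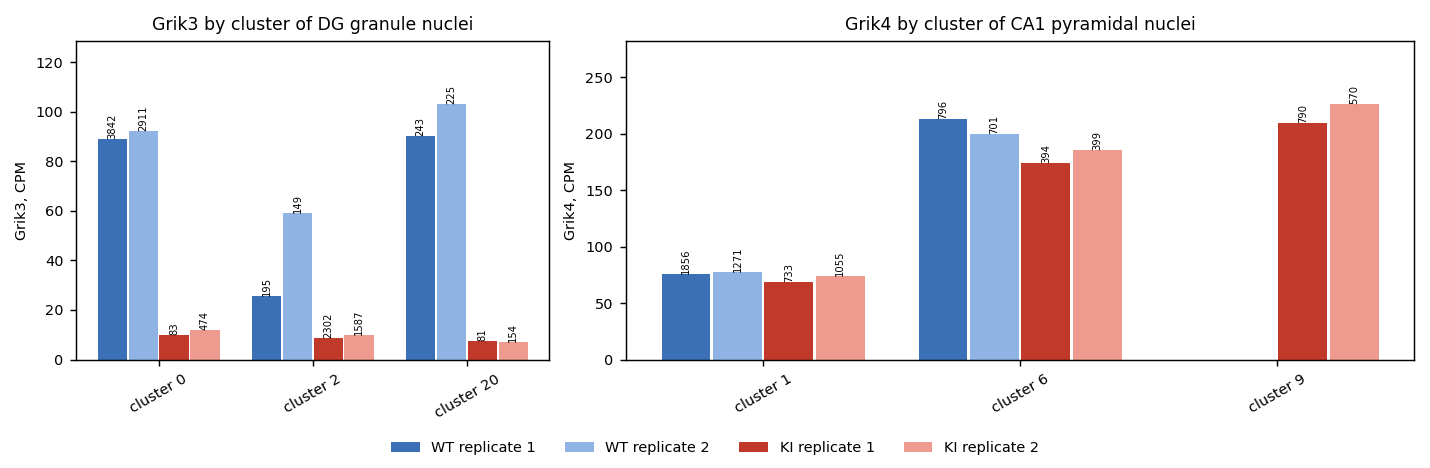
Level (CPM, bars from 0) of Grik3 by cluster of DG granule nuclei and of Grik4 by cluster of CA1 nuclei, 1 bar per library with the number of nuclei above it. Grik3 is lower in both KI libraries than in both WT libraries in all 3 DG clusters, while Grik4 in CA1 is high in cluster 9, which held 12 and 14 WT nuclei, too few to draw, against 790 and 570 KI nuclei.

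Grik2 was higher in DG granule nuclei of KI mice. It stood at 1687 and 1673 CPM in WT against 2296 and 2051 CPM in KI, with no overlap, a log2 fold change of 0.51 ± 0.10 (adjusted p = 0.0262). Within the clusters the picture differed. In cluster 0 the KI libraries (1659 and 1622 CPM) lay slightly below the WT libraries (1686 and 1677), whereas in cluster 2 they were at 2329 and 2204 against 2160 and 2094 CPM, and in cluster 20 at 1991 and 1750 against 1342 and 1288 CPM. Clusters were made from genes that also differ by genotype, so these values are a description. Grik4 rose as well, from 351 and 371 CPM to 505 and 473 CPM in KI (log2 fold change 0.57 ± 0.10, adjusted p = 0.0178). In cluster 2 it was 516 and 476 CPM in KI against 328 and 276 CPM in WT. In cluster 0 the KI libraries, at 335 and 484 CPM, lay on either side of the WT libraries at 355 and 378 CPM, and in cluster 20 the values were 370 and 388 CPM in KI against 310 and 324 CPM in WT. Without WT replicate 1 or 2, Grik2 kept estimates of 0.51 and 0.49 (adjusted p = 0.217 and 0.243) and Grik4 of 0.54 and 0.60 (adjusted p = 0.279 and 0.215), and so did not pass.

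Neto2 fell in DG granule nuclei from 14.5 and 14.4 CPM to 5.0 and 7.3 CPM (log2 fold change -1.12 ± 0.21, adjusted p = 0.0240). These are low counts, of 257 and 218 UMIs in WT and 59 and 70 in KI. Microglia held 2.6 to 20.9 CPM of Neto2, and after thinning 0% to 1.44% of microglia held a UMI of it against 1.53% and 1.89% of WT and 0.529% and 0.862% of KI DG granule nuclei, so the level was near that background. The call was lost with doublets kept (-0.93, adjusted p = 0.0943) and without WT replicate 1 or 2 (adjusted p = 0.201 and 0.185). Grik1 (17.2 and 14.0 against 13.4 and 15.7 CPM), Grik5 (111 and 121 against 104 and 117 CPM) and Neto1 (218 and 196 against 171 and 240 CPM) overlapped between the groups in DG granule nuclei and did not pass.

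**Figure D5:**
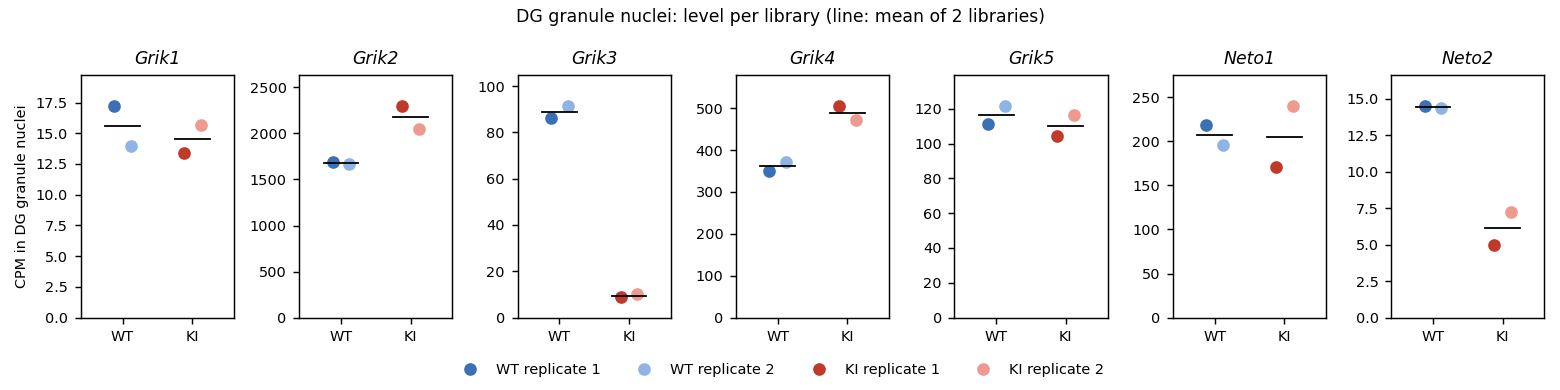
Level (CPM, axes from 0) of the 7 genes in DG granule nuclei, 1 point per library, with a line at the mean of the 2 libraries of a group. Grik3 and Neto2 are lower and Grik2 and Grik4 higher in both KI libraries than in both WT libraries, while Grik1, Grik5 and Neto1 overlap.

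Markers of other cells in the DG sums also moved with genotype. The 8 astrocyte markers together stood at 962 and 928 CPM in WT against 412 and 645 CPM in KI, and 5 of the 8 were lower in both KI libraries. Most of that sum was Slc4a4 (871 and 837 against 357 and 576 CPM), which is also among the leading genes of DG clusters 0 and 20, and the other 7 astrocyte markers summed to 90.7 CPM in both WT libraries and 55.4 and 68.2 CPM in KI. The 6 OPC markers stood at 46.7 and 52.4 CPM in WT against 184 and 126 CPM in KI, 2 of the 6 higher in both KI libraries, and 6 of the 7 CA1 markers were lower, from 85.7 and 77.3 CPM to 49.8 and 54.9 CPM. The 8 mossy cell markers stood at 91.97 and 97.95 against 67.5 and 78.9 CPM (3 lower, 3 higher) and the 8 CA3 markers at 358 and 346 against 312 and 328 CPM (3 lower, 2 higher), and 3 of the 8 oligodendrocyte markers were higher and none lower. Of the 6 inhibitory markers 3 were lower and 1 higher, and of the 8 microglial markers 3 were higher and 1 lower. None of these markers was at 0 in all libraries. OPCs themselves held Grik3 at 63.3 to 129 CPM, and their summed markers were higher in KI. The part of such RNA in the results was not tested.

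The upstream sequences of the 4 genes that changed in DG granule nuclei are shown because these are the members that changed in the same class. They are the 250 bases before the RefSeq start on GRCm38.p6, read 5′ to 3′ on the strand of the gene. RefSeq's table held such windows for 5 of the 7 genes. Capitals mark the GC box, GGGCGG on either strand.
Grik3, chr4:125490446-125490695, plus strand: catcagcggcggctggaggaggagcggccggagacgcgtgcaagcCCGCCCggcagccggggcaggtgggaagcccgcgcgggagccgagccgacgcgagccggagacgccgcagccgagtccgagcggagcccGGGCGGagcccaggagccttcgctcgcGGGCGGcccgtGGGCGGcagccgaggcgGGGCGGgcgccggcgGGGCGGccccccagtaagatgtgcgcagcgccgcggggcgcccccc
Neto2, chr8:85700925-85701174, minus strand: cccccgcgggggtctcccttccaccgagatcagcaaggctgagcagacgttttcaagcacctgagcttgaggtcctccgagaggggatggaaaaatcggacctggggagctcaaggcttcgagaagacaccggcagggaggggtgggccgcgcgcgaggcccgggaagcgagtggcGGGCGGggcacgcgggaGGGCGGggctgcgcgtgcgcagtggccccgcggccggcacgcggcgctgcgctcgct
Grik2, chr10:49788755-49789004, minus strand: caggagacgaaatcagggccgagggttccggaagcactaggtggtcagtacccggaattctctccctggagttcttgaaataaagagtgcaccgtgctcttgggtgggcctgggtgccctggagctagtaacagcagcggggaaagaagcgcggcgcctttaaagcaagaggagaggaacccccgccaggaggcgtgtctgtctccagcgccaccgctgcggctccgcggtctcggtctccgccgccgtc
Grik4, chr9:42944372-42944621, minus strand: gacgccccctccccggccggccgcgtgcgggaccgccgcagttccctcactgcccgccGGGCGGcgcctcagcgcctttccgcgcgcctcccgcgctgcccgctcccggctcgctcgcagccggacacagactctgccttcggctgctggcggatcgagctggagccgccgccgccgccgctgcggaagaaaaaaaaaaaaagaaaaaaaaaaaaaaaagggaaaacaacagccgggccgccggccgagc
The Grik3 window held 6 GC boxes and 82.0% G and C, that of Neto2 shown here 2 and 72.0%, that of Grik4 1 and 69.6%, and that of Grik2 0 and 62.8%. A second Neto2 window in the table, at chr8:85691010-85691259, held 0 and 42.4%. For comparison, 32.7% of 32851 such windows held a GC box, and their median share of G and C was 52.4%. The E-box CACGTG, held by 6.02% of the windows, and the half-site TGACG of the cAMP response element, held by 17.8%, were in none of these windows on either strand. A match describes letters and is not shown to be a site in use.

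In CA3 pyramidal neurons, the targets of the mossy fibers, Neto2 was the member that fell. It stood at 85.0 and 75.8 CPM in WT against 23.3 and 37.99 CPM in KI, with no overlap. The log2 fold change was -1.33 ± 0.20 (adjusted p = 0.0129), a level 2.51-fold lower, and it passed in all 12 alternatives (-1.67 to -1.04). Nuclei with a Neto2 UMI made up 43.1% (40.0% to 46.2%) and 44.7% (40.9% to 48.5%) in WT and 19.1% (16.0% to 22.4%) and 24.8% (21.1% to 28.7%) in KI. After thinning the shares were 7.46%, 7.54%, 2.35% and 2.48%. In both CA3 clusters the KI libraries (23.3 and 36.9 CPM in cluster 4, 23.4 and 44.6 CPM in cluster 24) lay below the WT libraries (87.7 and 76.4 CPM, 63.4 and 71.9 CPM). Within CA3, as within DG, nuclei of the genotypes lay largely in different subclusters (258, 203, 2 and 35 nuclei in subcluster 0, 339, 122, 1 and 4 in subcluster 1, 0, 3, 276 and 123 in subcluster 3, and 1, 1, 128 and 181 in subcluster 4, in the order WT replicates 1 and 2, KI replicates 1 and 2), and levels by subcluster were not tested. Only subcluster 1 met the marker rule for CA3 when compared with the others. Subclusters 0, 3 and 4 did not, and kept the class of their cluster. Subclusters 2, 3, 7 and 9, also kept, were closest to mossy cells but raised under 3 markers. In the CA3 sums 5 of the 7 CA1 markers (264 and 271 CPM together in WT, 199 and 210 in KI), 5 of the 8 DG markers (314 and 347, 246 and 288) and 5 of the 8 astrocyte markers (66.2 and 73.5, 36.5 and 53.5) were lower in both KI libraries, with none of the CA1, 1 of the DG and 2 of the astrocyte markers higher. The 6 inhibitory markers together stood at 83.8 and 76.9 against 69.3 and 66.8 CPM, with 2 lower and none higher. The 6 OPC markers together were higher (37.8 and 38.1, 71.6 and 57.5), with 1 higher and 2 lower of the 6, as were the 8 mossy cell markers (225 and 248, 274 and 268), with 4 higher and 2 lower of the 8. The part of these in the result was not tested.

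Neto1, the gene of the other auxiliary subunit, stood at 831 CPM in both WT libraries and 534 and 671 CPM in KI, but did not pass (log2 fold change -0.38 ± 0.11, adjusted p = 0.0955). Grik4, the subunit gene that marks CA3, had 1145 and 1174 CPM in WT against 1077 and 957 CPM in KI (-0.10 ± 0.11, adjusted p = 0.644). Grik5 had 149 and 147 against 165 and 165 CPM, and Grik2 1615 and 1660 against 1519 and 1445 CPM, with adjusted p of 0.241 and 0.790. Grik2, Grik4 and Grik5 thus did not pass in CA3.

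In CA2 nuclei Grik2 rose from 732 and 713 CPM to 992 and 1041 CPM in KI (log2 fold change 0.56 ± 0.12, adjusted p = 0.00412). The class was found by subclustering and is small, with 184, 111, 141 and 124 nuclei. When nuclei were put in classes by their markers alone, the estimate was 0.10 (adjusted p = 0.751), and without WT replicate 1 or 2 the adjusted p was 0.101 and 0.131. In the CA2 sums the astrocyte markers together stood at 154 and 147 CPM in WT against 79.4 and 80.3 CPM in KI (3 of 8 lower and 1 higher in both KI libraries) and the CA1 markers at 252 and 259 against 177 and 229 CPM (2 of 7 lower, 1 higher). The DG markers stood at 512 and 451 against 426 and 447 CPM (5 of 8 lower, none higher), and of the CA3 and the microglial markers 3 of 8 each were lower and none higher. The part of these in the result was not tested.

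In CA1 nuclei no member passed. Grik4 was nearest, at 124 and 126 CPM in WT against 160 and 154 CPM in KI (log2 fold change 0.41 ± 0.09, adjusted p = 0.0517). In cluster 9, with 12 and 14 WT and 790 and 570 KI nuclei, the KI libraries held 210 and 226 CPM. Clusters were made from genes that also differ by genotype, so values by cluster are a description. They do not show what the difference rests on. In the shared clusters KI lay below WT, with 68.9 and 73.7 against 75.3 and 77.2 CPM in cluster 1 and 174 and 185 against 213 and 199 CPM in cluster 6, and without cluster 9 the log2 fold change of the class was -0.12 (adjusted p = 0.489). Neto2 stood at 65.1 and 64.3 CPM in WT against 24.7 and 46.1 CPM in KI (-0.81 ± 0.24, adjusted p = 0.0897), and Grik5 at 109 and 112 against 121 and 144 CPM (0.33 ± 0.10, adjusted p = 0.0842). Neto1 did not pass in the class as a whole (184 and 199 against 153 and 161 CPM), but in cluster 1, chosen after its values were seen, it stood at 112 CPM in both WT libraries and 39.5 and 45.9 CPM in KI. In cluster 6 the groups overlapped, with 318 and 328 CPM in WT against 278 and 397 CPM in KI.

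In inhibitory nuclei as a whole no member passed. Grik1, which of all classes stood highest in this one, was lower in both KI libraries, but by a log2 fold change of only -0.16 ± 0.09 (adjusted p = 0.348). Grik2 had 1895 and 1977 CPM in WT against 2296 and 2200 CPM in KI (0.33 ± 0.09, adjusted p = 0.0963). Among the 5 subtypes only Lamp5 interneurons, which include neurogliaform cells, gave calls, 3 of 6 members tested, where 2.98% of all genes passed (1.79% higher, 1.18% lower). Grik2 rose there from 2350 and 2537 to 3485 and 3449 CPM (0.61 ± 0.11, adjusted p = 0.00499). Neto1 rose from 213 and 225 to 303 and 327 CPM (0.62 ± 0.15, adjusted p = 0.0247), and Neto2 fell from 111 and 95.4 to 56.4 and 52.7 CPM (-0.82 ± 0.20, adjusted p = 0.0316). Grik2 passed in all 11 alternatives, Neto2 in 8 and Neto1 in 7, the last 2 being lost without either WT replicate. In the Lamp5 sums the CA1 markers stood at 248 and 264 CPM in WT against 171 and 158 CPM in KI (4 of 7 lower, 1 higher) and the mossy cell markers at 139 and 134 against 187 and 182 CPM (1 of 8 higher, none lower). The CA3 markers stood at 620 and 556 against 482 and 536 CPM (2 of 8 lower, none higher), 4 of 6 OPC markers were lower and 1 higher, and 3 of 8 microglial markers were higher and none lower. The part of these in the results was not tested. The background was 2.25% in Pvalb, 0.612% in Sst, 0.448% in Cnr1 and 0.213% in Vip interneurons, with no member called.

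Glial and vascular classes gave no call. OPCs had Grik3 at 129 and 126 CPM in WT against 66.9 and 63.3 CPM in KI, with no overlap, from 112, 84, 58 and 45 UMIs (log2 fold change -0.84 ± 0.22, adjusted p = 0.318). Oligodendrocyte nuclei were split by genotype into cluster 3 (1973 and 1212 WT, 36 and 77 KI nuclei) and cluster 5 (54 and 15 WT, 2073 and 783 KI nuclei), and no member passed in the class. In fibroblast nuclei Grik1 stood at 22.5 and 11.5 CPM in WT against 149 and 112 CPM in KI, with an estimate of 3.05 and an adjusted p of 0.237. It passed in 7 of 12 alternatives, and the estimate was 1.67 with doublets kept (adjusted p = 0.741) and -0.045 with classes set by markers alone (adjusted p = 0.958). Of its 38 and 35 UMIs in KI, 29 and 25 came from a single nucleus in each library, and without the top nucleus of each library the levels were 5.77 and 7.74 CPM in WT against 37.0 and 32.7 CPM in KI.

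Summed over all nuclei, no member passed, while 0.875% of all genes did. Grik3 stood at 58.1 and 77.9 CPM in WT against 33.6 and 47.2 CPM in KI (log2 fold change -0.70 ± 0.20, adjusted p = 0.122), and Neto2 at 54.5 and 58.2 against 25.1 and 42.1 CPM (-0.70 ± 0.22, adjusted p = 0.147). Grik3 and Neto2 both passed with DESeq2. In these sums fewer cells of a type and less RNA per cell cannot be told apart, and DG granule nuclei numbered 4280 and 3285 in WT and 2466 and 2215 in KI.

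Whether the genotype effect differed between classes was tested for 6 pairs of classes, as the interaction of class and genotype in a fit blocked by library. Of 42 tests 17 passed. The share of all genes that passed was 13.6% for DG against CA1, 10.2% for DG against CA3, 9.11% for DG against inhibitory, 5.34% for CA1 against inhibitory, 2.5% for CA3 against inhibitory and 2.12% for CA1 against CA3. Grik3 fell more in DG granule nuclei than in CA1, CA3 and inhibitory nuclei, by log2 differences of -2.65 ± 0.21, -2.83 ± 0.31 and -2.83 ± 0.14 (adjusted p = 6.37e-06, 1.55e-05 and 1.10e-08). In CA1 and CA3 nuclei Grik3 itself was near the floor, at 3.4 to 16.3 CPM.

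The effect on Grik2 was more positive in DG granule nuclei than in CA1 (0.64 ± 0.08, adjusted p = 0.000232) and CA3 (0.56 ± 0.10, adjusted p = 0.00116), while no difference from inhibitory nuclei was called (0.18, adjusted p = 0.314). The Grik4 effect in DG was above that in CA3 (0.68 ± 0.10, adjusted p = 0.000257) and inhibitory nuclei (0.45 ± 0.11, adjusted p = 0.0169). The first passed in all 11 alternatives and the second in 7 of 11, where it ranged from 0.26 to 0.55. For Neto2 the effect was more negative in CA3 than in inhibitory nuclei (-1.05 ± 0.15, adjusted p = 0.000613), and in DG than in inhibitory nuclei (-0.83 ± 0.17, adjusted p = 0.00499), and the difference between DG and CA3 was not called (0.21, adjusted p = 0.546). For Neto1 the effect in CA3 lay below that in inhibitory nuclei (-0.72 ± 0.12, adjusted p = 0.00179) and in DG (0.49 ± 0.11 for DG against CA3, adjusted p = 0.00618).

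The other ionotropic glutamate receptor genes, 13 genes of AMPA, NMDA and delta receptors, gave a backdrop. In DG granule nuclei 12 were tested, of which 1 rose and 4 fell, with a median log2 fold change of -0.13 beside 0.00 over all genes. Of all genes tested there, 4.91% rose and 4.92% fell. Grid1, a delta receptor gene (629 and 614 CPM in WT, 256 and 283 CPM in KI, log2 fold change -1.07 ± 0.08, adjusted p = 0.00266), fell, as did Grin3a (51.0 and 64.0 against 18.1 and 19.8 CPM, -1.47 ± 0.15, adjusted p = 0.00467). Gria3, an AMPA receptor subunit gene, rose from 753 and 738 to 1001 and 911 CPM (0.50 ± 0.10, adjusted p = 0.0280). In CA1, 1 of 11 rose and 2 fell, beside 4.1% and 2.63% of all genes. The largest change was that of Grin3a (75.5 and 94.9 against 31.8 and 26.5 CPM, -1.46 ± 0.17). In inhibitory nuclei, where 1.18% of all genes passed, Gria3 and Grin1, the obligate NMDA receptor subunit gene, rose (2 of 12, with none lower). Grin1 went from 238 and 239 to 438 and 326 CPM. In CA2 Grin1 was the 1 gene of 10 that rose, beside 1.76% of all genes. In CA3 none of 11 passed, beside 3.54% of all genes.

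Of 19 genes for partners of kainate receptors, 18 were measured. In DG granule nuclei 4.91% of all genes rose and 4.92% fell. Of the 18 partner genes, 4 rose there and none fell, with a median log2 fold change of 0.09. They include Nrxn3, a presynaptic neurexin (1556 and 1425 CPM in WT, 3988 and 3374 CPM in KI, 1.44 ± 0.12, adjusted p = 0.00303), Grip1, a PDZ scaffold (186 and 189 against 261 and 291 CPM, 0.69 ± 0.09, adjusted p = 0.00860), and C1ql2, a secreted C1q-like protein of mossy fiber terminals that binds GluK2 and GluK4 (31.9 and 28.4 against 42.3 and 43.9 CPM, 0.65 ± 0.12, adjusted p = 0.0262). In CA1, C1ql3 rose (142 and 139 against 169 and 185 CPM, 0.42 ± 0.09, adjusted p = 0.0384) and the scaffold gene Dlg4 fell (107 and 99.9 against 63.0 and 71.1 CPM, -0.55 ± 0.10, adjusted p = 0.0275). Of all genes in CA1, 4.1% rose and 2.63% fell. The C1ql3 call held in 9 of 13 alternatives, where the estimate ranged from 0.09 to 0.45, and the Dlg4 call in 11 of 13. Grip1 rose in mossy cells (534 and 454 against 859 and 764 CPM, 0.83 ± 0.16, adjusted p = 0.0483), a call that held in 6 of 12 alternatives, where the estimate ranged from 0.25 to 0.98. None of the 18 passed in CA2, CA3 or inhibitory nuclei.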

How the data were processed

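Hippocampal nuclei of 4 mice were profiled with 10x 3' libraries. The authors made the UMI counts with Cell Ranger 7.0.1, per the file headers, against mm10, per the labels, and deposited 1 filtered count matrix per library with 55640 barcodes in all. Nuclei with at least 500 genes and at most 5% mitochondrial counts were kept, and nuclei with a doublet score above 0.25 were removed (630 to 1048 per library). Nuclei were clustered with scanpy 1.11.5 and leidenalg 0.10.2 on 2000 variable genes, without the 7 members and without batch correction. Of 48 clusters, 30 that raised at least 3 markers of a class took its name. The others stayed unnamed for too few markers, a low mean of markers, a high median doublet score, markers of a second class, likeness to 2 classes or mitochondrial leading genes, so that 7997 of 52016 nuclei stayed out of the class sums. Subclusters of CA3 that met no rule stayed in CA3, unless they were closest to CA2 or had a high median doublet score. Raw counts were summed per library and class and tested with edgeR 4.0.16 (filterByExpr, TMM, quasi-likelihood test, Benjamini-Hochberg over all genes, threshold 0.05) where every library had at least 20 nuclei. DESeq2 1.42.0 was an alternative. The scripts were tested on simulated data.

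Groups came from the genotype labels. Calls of all 7 members are named, but not every member value that did not pass. Those of KI against WT in mossy and in subicular or cortical excitatory nuclei are left out. From the 2 other gene lists, up to 3 called genes per direction and class were eligible, with a mean of at least 10 CPM and no overlap between groups. The members and lists were chosen with earlier results of these data known. Klhl17, on the list of partners, was not analysed here, and 1 gene of the other list is not reported here by name. Intervals of shares are exact binomial ones.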

Additional observations from a re-analysis of the deposited data

Results flagged for a closer look

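The genotype effect of a member differed between 2 classes in 17 of 42 tests of the class-by-genotype term (edgeR, adjusted p below 0.05). The values are differences of log2 fold changes. For DG granule against CA1 nuclei they were 0.64 for Grik2 and -2.65 for Grik3. For DG granule against CA3 nuclei they were 0.56 for Grik2, -2.83 for Grik3, 0.68 for Grik4 and 0.49 for Neto1. For DG granule against inhibitory nuclei they were -2.83 for Grik3, 0.45 for Grik4 and -0.83 for Neto2.

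Among the other pairs, CA1 against CA3 nuclei gave 0.52 for Grik4 and 0.51 for Neto2, and without the CA1 cluster of KI nuclei that of Grik4 was -0.01 (adjusted p = 0.974). The Neto2 difference (adjusted p = 0.0430) passed in 5 of 12 alternatives, with adjusted p of 0.00208 to 0.796. CA1 against inhibitory nuclei gave -0.48 for Grik2, -0.53 for Neto1 and -0.55 for Neto2. CA3 against inhibitory nuclei gave -0.40 for Grik2, -0.72 for Neto1 and -1.05 for Neto2. That of Grik2 passed in 6 of 11 alternatives, and those of Neto1 and Neto2 in 10 of 11 each. Pairs share classes and libraries, so these tests are not independent of one another. Groups of 2 libraries could not be screened for a library that stands apart.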

How the results depend on the processing

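Grik3 in DG granule nuclei and Neto2 in CA3 nuclei passed in all 12 alternatives. The 6 calls within classes became 15 with no filter on low counts and 2 to 21 when 1 library was left out, with fewer without a WT and more without a KI library, where the lone sample is assumed to vary like the others. Over all nuclei the count of 0 became 2 with DESeq2 and 0 to 2 with 1 library left out, and the 17 differences between classes became 11 with DESeq2 and 7 to 21 with 1 library left out. The replicate block gave 14 calls within classes and 2 over all nuclei, but the labels do not say that a number pairs mice, and same-numbered deviations correlated by 0.0273 over all nuclei, so the samples share only a number. The share of all genes called under each of these settings is not given here, so the counts do not show a change particular to the members. The causes were not tested. Of 498 values of 42 single results under the alternatives, 404 kept their direction and side of the threshold, 75 were no longer past it, 16 came to pass it and 3 reversed. The reversed ones were Grik4 in CA1 (-0.12) and Grik4 in CA1 against CA3 (-0.015), both without the cluster of KI nuclei, an alternative chosen after seeing the data, and Grik1 in fibroblasts (-0.045) with classes set by markers alone. That last setting left the highest class of 5 of 7 members as it was, and made inhibitory nuclei the highest for Grik2 and Neto2. Values within clusters and without the top nucleus were also added after seeing the data. Library totals in place of TMM moved the median of all genes in a class by -0.14 to -0.01. Classes of few nuclei and genes near the microglial level limit what the depth can show.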
